A study of Mus musculus with 6 samples.

Results

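Transforming growth factor beta (TGF-beta) is a family of secreted cytokines with 3 members in the mouse. Each ligand leaves the cell bound to its own cleaved pro-peptide, and latent TGF-beta binding proteins such as Ltbp1 tether that inactive complex to the matrix until it is released. The free ligand binds the type II receptor Tgfbr2, which phosphorylates the type I receptor Tgfbr1, and the kinase of Tgfbr1 phosphorylates Smad2 and Smad3, which join Smad4 and enter the nucleus. Smad7, itself induced by the pathway, blocks Smad activation at the receptor, and Tgfbi, named for its induction by TGF-beta, encodes a secreted matrix protein. In the injured brain the pathway is known for its part in scar formation and in keeping microglia in their resting state.

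The 9 genes described here are these ligands (Tgfb1, Tgfb2 and Tgfb3), the latency protein Ltbp1, the receptors Tgfbr1 and Tgfbr2, the mediator Smad3, the inhibitor Smad7 and the target Tgfbi. They were chosen by symbol, not by a measured value, and are 9 of the 15441 genes with a value. All 9 were listed in all 6 libraries. Stroke was induced in male C57/BL6J mice of 6 to 8 weeks by photothrombosis, in which light shone through the skull closes cortical vessels of mice given the dye Rose Bengal. The whole ipsilateral cortex was taken at day 1, 3, 7, 14 or 28, and the control was cortex of mice that had the same operation without the light (sham), taken at day 7. RNA of 3 mice was pooled for each group, so each group is 1 library, every comparison below shares the single sham library, and no difference has a replicate check, an error or a p-value. All mice were wild type, and the pooled cortex holds neurons, glia, vessels and infiltrating cells together, so that more cells of a type and more RNA per cell cannot be told apart.

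The values are the authors' FPKM, fragment counts divided by transcript length and by the size of the library, which can be compared between genes. The deposited tables give an FPKM to each event of a gene (a place where transcripts start or end, or a spliced exon), and a gene was given the largest of 3 numbers, namely the sum over its starts, the sum over its ends and its highest single event. Every log2 ratio given below is log2((FPKM + 0.1)/(sham FPKM + 0.1)), and a gene is called higher or lower than sham where this ratio is at least 1 in size and at least 1 of both libraries holds 1 FPKM. The depth of each library is unknown; the stated average was 33.6 M reads. The number of genes with a value ran from 13263 at day 14 to 13987 at day 7. Neuronal, astrocyte and oligodendrocyte markers were listed in every library, while the hypothalamic markers Oxt, Avp, Pmch and Pomc were not listed in sham and reached a sum of 55.9 FPKM at day 1.

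Of the alternative exons listed for the 9 genes, those of Tgfb2, Tgfbr1 and Tgfbr2 are shown first, because the results on the ligands and receptors return to them. The spliced exon of Tgfb2 (chr1:186690721-186690804, mm10, minus strand) is exon 2 of 8 of transcript Tgfb2-206 and holds 84 coding bases. The spliced exon of Tgfbr2 (chr9:116158271-116158345, minus strand) is exon 2 of 8 of transcript Tgfbr2-202 and holds 75 coding bases. In Tgfbr1 the third of 9 exons of transcript Tgfbr1-201 starts at either of 2 acceptor sites, which differ by 12 coding bases (chr4:47393247-47393258, plus strand). All 3 lengths are multiples of 3, so the reading frame is kept with or without these bases. The lines below give each stretch in capitals with 30 coding bases of the same transcript on either side, in the sense of the gene, from GENCODE M21.
Tgfb2 exon 2: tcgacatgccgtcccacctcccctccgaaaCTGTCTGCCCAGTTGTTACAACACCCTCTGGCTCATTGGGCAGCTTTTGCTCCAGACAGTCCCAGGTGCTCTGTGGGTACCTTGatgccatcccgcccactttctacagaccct
Tgfbr2 exon 2: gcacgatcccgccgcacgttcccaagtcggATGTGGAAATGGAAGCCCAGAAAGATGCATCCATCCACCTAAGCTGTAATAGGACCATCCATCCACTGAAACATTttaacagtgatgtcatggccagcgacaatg
Tgfbr1 exon 3: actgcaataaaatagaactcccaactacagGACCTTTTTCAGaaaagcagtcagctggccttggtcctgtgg

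Among the ligands, Tgfb1 was the one whose level moved past the threshold. Its value was 2.02 FPKM in sham and 3.22, 7.07, 9.38, 6.52 and 2.28 on days 1, 3, 7, 14 and 28. The level was thus highest at day 7 and back near sham at day 28. The log2 ratio to sham was 0.65, 1.76, 2.16, 1.64 and 0.16 on days 1, 3, 7, 14 and 28. At day 7 this was a 4.47-fold ratio, larger than that of 96.8% of all genes compared. Tgfb1 lies at chr7:25687002-25705077 on the plus strand, and its 6 values come from start events, since no end event of it was listed.

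Tgfb2, the isoform known for neural and cardiac development, stayed within a narrow range. Its values were 2.65 FPKM in sham and 2.96, 3.09, 2.56, 2.54 and 3.55 on days 1, 3, 7, 14 and 28. The highest was 1.40 times the lowest, and the log2 ratios to sham ran from -0.06 at day 14 to 0.41 at day 28. With starts alone summed, these ratios were -0.45 at day 14 and 0.12 at day 28, and the highest Tgfb2 value was at day 3. Tgfb3, the isoform known for palate closure, was lowest in sham, with 2.18 FPKM, and was listed at 2.44, 3.45, 3.02, 3.55 and 2.76 on days 1, 3, 7, 14 and 28. Every post-stroke value of Tgfb3 was above sham, but none reached the threshold, and the largest log2 ratio was 0.68 at day 14. With scaling by the median ratio or by transcript length, the highest Tgfb3 value was at day 3.

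The make-up of the ligand pool therefore differed between libraries. In sham Tgfb2 held the largest share, 38.7% of the summed 6.85 FPKM, and Tgfb1 the smallest, 29.5%. The sum was 8.63 FPKM, 13.6, 15.0, 12.6 and 8.58 on days 1, 3, 7, 14 and 28. Tgfb1 held 37.4%, 51.9%, 62.7% and 51.7% on days 1, 3, 7 and 14. At day 28 the order was that of sham again, with Tgfb2 at 41.3%, Tgfb3 at 32.1% and Tgfb1 at 26.5%. That order rests on the end sum of Tgfb2 at day 28, 3.55 FPKM. Its start sum there was 2.75 FPKM, beside 2.76 for Tgfb3, and Tgfb1 has start events only. The ligands are related in sequence: over the last 110 codons, which encode nearly all of the mature cytokine, Tgfb1 shared 73.0% of bases with Tgfb3 and 68.8% with Tgfb2, and Tgfb2 shared 70.9% with Tgfb3.

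**Figure D1:**
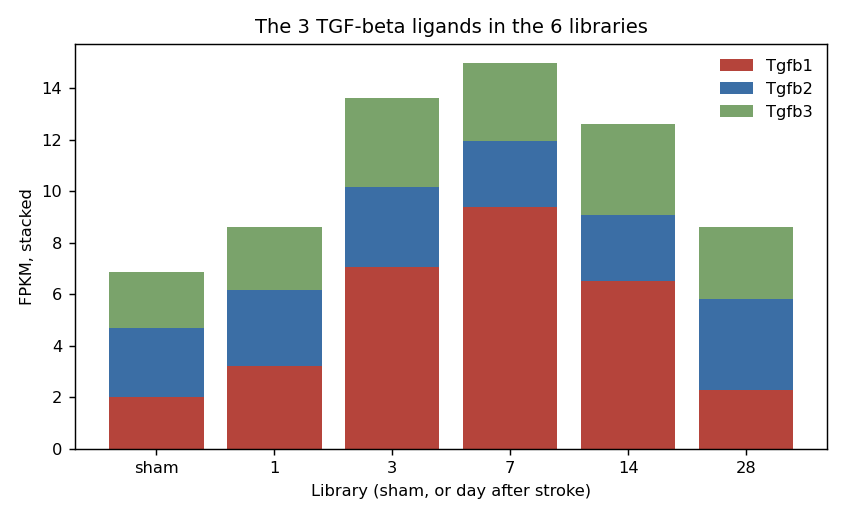
FPKM of Tgfb1, Tgfb2 and Tgfb3 stacked for each of the 6 libraries (x axis, sham or day after stroke; y axis, FPKM; 1 pooled library per bar, no error). The red Tgfb1 part grows from 2.02 FPKM in sham to 9.38 at day 7 and returns to 2.28 at day 28, while the blue Tgfb2 part stays between 2.54 and 3.55.

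The alternative exon of Tgfb2 was listed in 2 of the 6 libraries. The form with the 84-base exon was at 0.680 FPKM in sham and 0.746 at day 28 and was not listed at day 1, 3, 7 or 14. The form that skips it was listed in every library, with 1.85 FPKM in sham and 2.71, 2.90, 2.50, 1.82 and 0.961 on days 1, 3, 7, 14 and 28. The exon was thus in 26.9% of the summed forms in sham and in 43.7% at day 28. These shares have unlike bases. The 2 forms summed to the start sum of 2.53 FPKM in sham, but to 1.71 of a start sum of 2.75 at day 28. This inserted stretch lies in the pro-peptide part of the coding sequence, before the mature cytokine. Day 28 also differed in its starts: a start event at chr1:186702407-186702457 with 1.04 FPKM was listed in that library alone, beside the main start with 1.71 FPKM.

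Ltbp1, which anchors the latent ligand to the matrix, was the member with the lowest level. It was at 1.10 FPKM in sham and 0.714, 0.991, 0.781, 0.278 and 0.396 on days 1, 3, 7, 14 and 28. Every post-stroke value was below sham, and the log2 ratio passed the threshold at day 14 (-1.66) and day 28 (-1.27). Only the sham library reached 1 FPKM, so Ltbp1 was compared through its sham value alone. With a pseudocount of 1 the ratios were -0.71 and -0.59, within the threshold.

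The starts of Ltbp1 differed along with the level. The start at chr17:75178810-75179204, used by the shorter annotated form, was at 0.931 FPKM in sham and 0.639, 0.948 and 0.379 on days 1, 3 and 7, and was not listed at day 14 or 28. A second start event near the end of the gene (chr17:75384210-75385195) was at most 0.278 FPKM in any library and was the whole start signal at day 14 and day 28. No start event was listed at the upstream start of the long form.

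Of the 2 receptors, Tgfbr2 was called higher at day 3 and day 7. It was at 2.50 FPKM in sham and 1.88, 8.20, 8.20, 3.63 and 3.01 on days 1, 3, 7, 14 and 28. The day 1 value was the lowest, with a log2 ratio of -0.39, and the ratio was 1.68 at both day 3 and day 7 and 0.52 at day 14. Start, end and exon events of Tgfbr2 gave the same sum in each library, so its values are the same however the gene value is built. The equal sums are no separate check of the level.

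The 75-base exon of Tgfbr2, which encodes an insert in the part outside the cell, separates the longer from the shorter receptor form. The form with the exon was at 0.985 FPKM in sham and 0.717, 2.61, 3.67, 3.63 and 0.996 on days 1, 3, 7, 14 and 28. The form without it was at 1.51 FPKM in sham and 1.16, 5.59, 4.52 and 2.02 on days 1, 3, 7 and 28, and was not listed at day 14. Both forms were higher at day 3 and day 7 than in sham. The share with the exon was 39.5% in sham and 38.2%, 31.8%, 44.8% and 33.0% on days 1, 3, 7 and 28, against 100% at day 14. At day 14 the longer form was listed at nearly the level of day 7 and made up the whole Tgfbr2 total of that library. Whether the shorter form was absent there or only not listed cannot be told, so neither form's level at day 14 is settled.

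**Figure D2:**
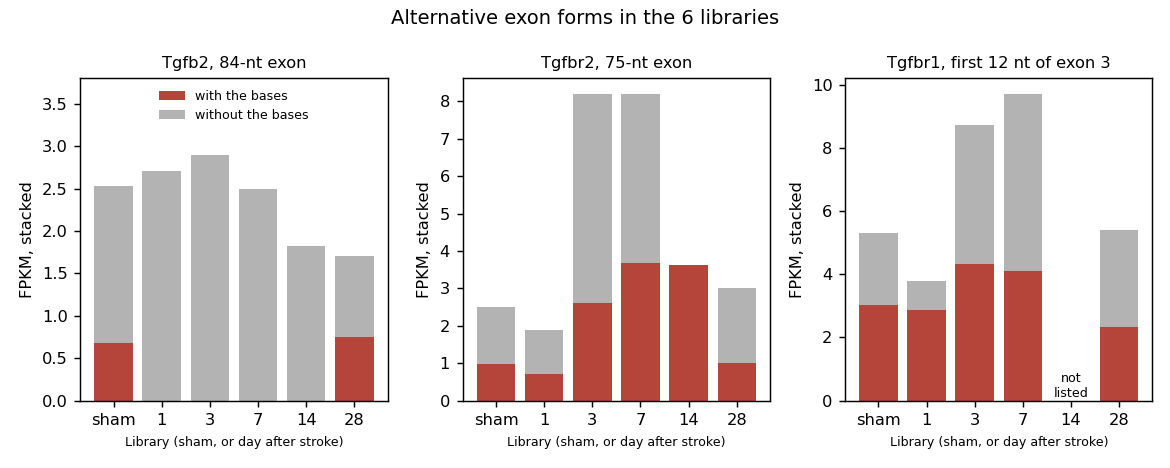
FPKM of the forms with (red) and without (grey) the alternative bases of Tgfb2, Tgfbr2 and Tgfbr1 (x axis, library; y axis, FPKM, stacked; 1 pooled library per bar, no error). The red part of Tgfb2 is present only in sham and at day 28, the Tgfbr2 bar of day 14 is all red at 3.63 FPKM, and neither Tgfbr1 form was listed at day 14.

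Tgfbr1 had the widest range of the 9 genes. It was at 5.30 FPKM in sham and 3.77, 8.72, 9.70, 0.855 and 5.40 on days 1, 3, 7, 14 and 28. The values at day 3 and day 7 were above sham without reaching the threshold, with log2 ratios of 0.71 and 0.86. The day 14 value lay far below all others, with a log2 ratio of -2.50, and at day 28 the ratio was 0.03. In the other 5 libraries the start, the exon forms and the skipping event gave the same sum, but at day 14 a single start event was all that was listed. Leaving out the day 14 library leaves Tgfbr1 with 0 days past the threshold.

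The day 14 library as a whole listed long transcripts at lower values. Of the genes compared at day 14 whose longest transcript has at least 5000 nt, 15.7% were lower than sham and 4.24% higher, against 4.22% lower and 10.4% higher for shorter ones. The day 1 library differed from sham in the same direction by less, with 6.89% of the long ones lower and 3.09% higher, against 3.73% and 5.70% of the shorter ones, and Tgfbr1, Tgfbr2 and Ltbp1 were below sham at day 1. The longest transcript has 5756 nt for Tgfbr1, 6671 for Ltbp1, 8092 for Tgfbr2, 5116 for Tgfb2 and 5090 for Smad3, and 4 of these 5 genes (all but Tgfbr2) had their lowest value at day 14, as did 1 of the other 4, Smad7. With each library corrected for the trend over transcript length, the day 14 log2 ratio was -2.24 for Tgfbr1 and -1.35 for Ltbp1. The part of RNA quality or library preparation in these values was not tested.

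Within Tgfbr1 the 2 acceptor sites of exon 3 were used side by side. The form with the 12 bases was at 3.02 FPKM in sham and 2.88, 4.31, 4.11 and 2.34 on days 1, 3, 7 and 28. The form without them was at 2.28 FPKM in sham and 0.893, 4.41, 5.60 and 3.06 on days 1, 3, 7 and 28. The share with the 12 bases was 57.1% in sham and 76.3%, 49.4%, 42.3% and 43.2% on days 1, 3, 7 and 28. The lower Tgfbr1 level of day 1 was thus mostly in the shorter form. Day 1 was also the only library in which skipping of the fifth exon (chr4:47402803-47402970, 168 bases) was listed, at 0.404 FPKM beside 3.37 FPKM with the exon.

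The balance of the receptors changed with these levels. Tgfbr1 was 2.12 times Tgfbr2 in sham and 2.01 times at day 1, but 1.06 times at day 3 and 1.18 times at day 7. At day 28 it was 1.79 times, and the day 14 ratio of 0.235 rests on the single start event described above.

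Smad3, which carries the signal from Tgfbr1 to the nucleus, had the highest level of the 9 genes in every library except day 7, where Tgfbr1 was at 9.70 FPKM. It was at 10.5 FPKM in sham and 11.3, 10.1, 9.64, 7.59 and 11.9 on days 1, 3, 7, 14 and 28. The log2 ratios to sham ran from -0.46 at day 14 to 0.19 at day 28, so that no library passed the threshold. Smad7, the inhibitor, was at 3.86 FPKM in sham and 4.45, 3.84, 4.43, 3.49 and 3.89 on days 1, 3, 7, 14 and 28. Its highest value was 1.28 times its lowest, the narrowest range of the 9 genes. Smad3 was between 2.17 times (day 14) and 3.07 times (day 28) the level of Smad7.

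Tgfbi, the target, had the largest upward ratio of the 9 genes. It was at 1.20 FPKM in sham and 2.05, 6.16, 4.34, 3.93 and 1.44 on days 1, 3, 7, 14 and 28. The log2 ratio was 0.73, 2.27, 1.77, 1.63 and 0.25 on days 1, 3, 7, 14 and 28. It was therefore highest at day 3, before the day 7 maximum of Tgfb1, and the day 3 ratio was above that of 97.5% of the genes compared. Start and end events of Tgfbi were equal except at day 28, where the start event was at 0.877 FPKM and the end event at 1.44, so that the small day 28 ratio changes sign (-0.41) if starts alone are summed.

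**Figure D3:**
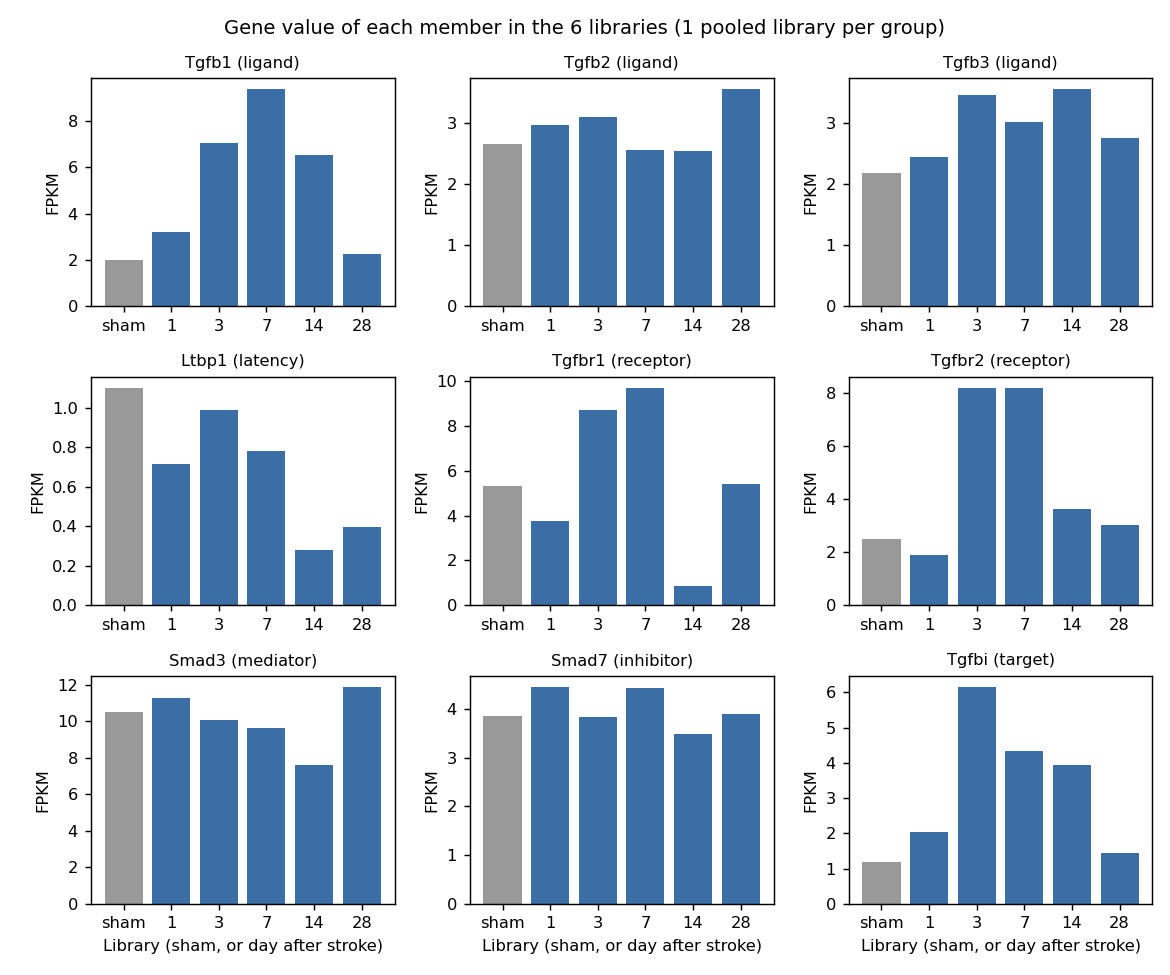
FPKM of each of the 9 genes in the sham library (grey) and at each day after stroke (blue), with 1 pooled library per bar, no error and a y axis of its own for each gene. Tgfb1, Tgfbr2 and Tgfbi form a hump over day 3 to 14 or day 3 to 7, Tgfb2, Tgfb3, Smad3 and Smad7 stay within a factor of 1.63, and Tgfbr1 drops to 0.855 FPKM at day 14 only.

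Counted over the 9 genes, all of which could be compared at each day, 0 were past the threshold at day 1, where 5.11% of all genes compared were higher and 4.48% lower. At day 3 the higher genes were Tgfb1, Tgfbr2 and Tgfbi, 3 of 9 or 33.3%, against 8.54% of all genes, and none was lower, against 2.53%. At day 7 these 3 were higher again, against 8.53% of all genes, and none was lower, against 2.12%. At day 14, 2 were higher (Tgfb1 and Tgfbi; 8.97% of all genes) and 2 lower (Ltbp1 and Tgfbr1; 6.92% of all genes). At day 28 none was higher (3.68% of all genes) and Ltbp1 alone was lower (2.79% of all genes). The median log2 ratio of the 9 genes was 0.16, 0.64, 0.45, -0.06 and 0.19 on days 1, 3, 7, 14 and 28, beside a median over all genes compared of 0.01, 0.03, 0.03, 0.10 and 0.03.

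**Figure D4:**
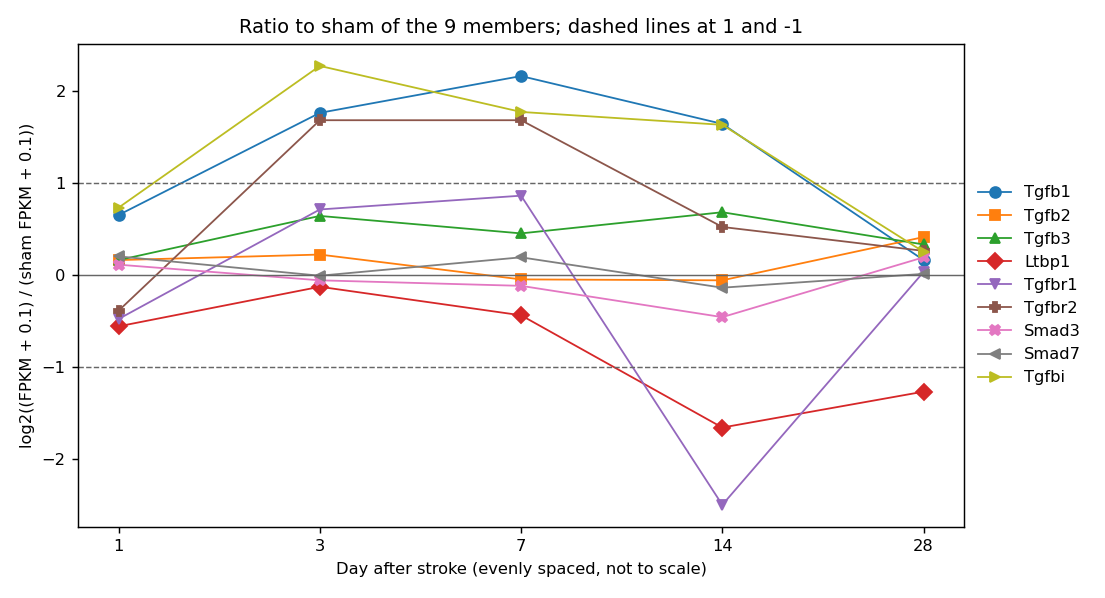
Log2 ratio to sham of the 9 genes (y axis, log2((FPKM + 0.1)/(sham FPKM + 0.1)); x axis, day after stroke, evenly spaced; each point 1 pooled library against the same sham library, no error). Above the dashed line at 1 lie Tgfb1 and Tgfbi from day 3 to 14 and Tgfbr2 at day 3 and 7, and below the line at -1 lie Tgfbr1 at day 14 and Ltbp1 at day 14 and 28.

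The summed markers of microglia and macrophages, like Tgfb1, were highest at day 7, but single markers differed. The summed level of the 7 markers with a value was 139 FPKM in sham and 197, 467, 717, 589 and 169 on days 1, 3, 7, 14 and 28, and all 7 were listed in each library. At day 3 all 7 were called higher than sham, and at day 7 and 14 it was 6 of 7. Cd68, a lysosomal protein of phagocytes, went from 4.32 FPKM in sham to 29.8 at day 7, and C1qa, a complement subunit made by microglia, from 42.5 to 259. Csf1r, C1qb and Tyrobp were highest at day 7 too. Aif1 and Ptprc were instead highest at day 14, at 15.2 and 3.40 FPKM, and were at 7.25 and 2.34 at day 7. The 6 fibroblast and mural cell markers summed to 44.0 FPKM in sham and 42.5, 98.1, 104, 99.6 and 41.8 on days 1, 3, 7, 14 and 28. The 6 endothelial markers, which mark a further cell type that carries TGF-beta receptors, summed to 11.1 FPKM in sham and 21.4 at day 3 and to between 10.6 and 12.3 in the other libraries, and Flt1 among them was not listed at day 14. The part of cell numbers in the values of Tgfb1, Tgfbr2 and Tgfbi was not tested.

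Of the 10169 genes with at least 1 FPKM in every library, those closest in pattern to a member were ranked by the root mean square difference of the centred log2(FPKM + 0.1) values over the 6 libraries. For Tgfb1 these were Cd53 (0.0631), Vav1 (0.103), Spi1 (0.106), Gngt2 (0.119) and Laptm5 (0.128), and 39 genes lay within 0.25 of it. Cd53 is a leukocyte tetraspanin, Spi1 encodes the myeloid transcription factor PU.1, and Vav1 and Laptm5 are known from blood cells. For Tgfbi the closest were Ecm1 (0.0954), a secreted matrix protein, then Apobec3 (0.149), Lgals1 (0.158), Ctsc (0.178) and Fabp7 (0.187). Lgals1 encodes a galectin, Ctsc a lysosomal protease and Fabp7 a fatty acid binding protein of radial glia and astrocytes.

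Tgfbr2 had fewer close neighbours, with 5 genes within 0.25. They were Gm45700 (0.194), Lipa (0.213), Inpp5d (0.229), Pon3 (0.246) and Slco2b1 (0.249). Lipa encodes lysosomal acid lipase and Inpp5d the phosphatase SHIP1 of blood cells and microglia. Tgfbr1 had none within 0.25, and its nearest gene, Hipk2 (0.290), was at 1.39 FPKM at day 14 and at 7.14 or more in the other libraries. The ranked genes had to reach 1 FPKM in every library, which Tgfbr1 itself, at 0.855 at day 14, did not. Bmpr1a (0.392), another type I receptor of the family, was among the 5 nearest to Tgfbr1. The nearest to Ltbp1 were Pank1 (0.177), Letm1 (0.195), Aebp2 (0.202), Arhgef28 (0.230) and Fbxl18 (0.242). The longest transcripts have 5956 to 11702 nt for the 5 genes nearest to Tgfbr1 and 5272 to 7857 nt for those nearest to Ltbp1. All of these genes had their lowest value at day 14, the library that listed long transcripts at lower values. The part of transcript length in these distances was not tested. Tgfb2, Tgfb3, Smad3 and Smad7 were not ranked, because their log2 range over the libraries was under 1. All distances given here are descriptions over 6 libraries of different mice, and the part of library preparation in them was not tested.

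**Figure D5:**
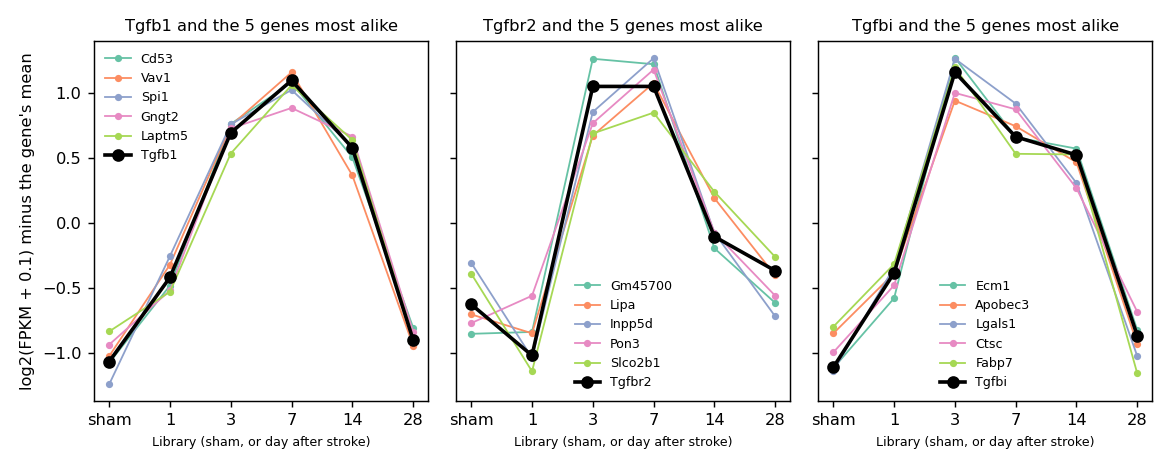
Centred log2(FPKM + 0.1) of Tgfb1, Tgfbr2 and Tgfbi (black) and of the 5 genes closest to each (colours) over the 6 libraries, with 1 pooled library per point and no error. The 5 genes follow Tgfb1 with a distance of at most 0.128, Tgfbi with at most 0.187 and Tgfbr2 with at most 0.249.

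Promoters of the 3 genes with the hump are shown because these genes moved together, with the Smad box CAGAC, the short element bound by Smad3, in capitals on either strand. The sequences are those of RefSeq (GRCm38.p6, the mm10 assembly), from 250 bases before the RefSeq start up to the base before the most upstream start that RefSeq or GENCODE annotates. They are chr7:25686752-25687001 (plus strand) for Tgfb1, chr9:116175364-116175613 (minus strand) for Tgfbr2 and chr13:56609336-56609522 (plus strand) for Tgfbi.
Tgfb1 promoter: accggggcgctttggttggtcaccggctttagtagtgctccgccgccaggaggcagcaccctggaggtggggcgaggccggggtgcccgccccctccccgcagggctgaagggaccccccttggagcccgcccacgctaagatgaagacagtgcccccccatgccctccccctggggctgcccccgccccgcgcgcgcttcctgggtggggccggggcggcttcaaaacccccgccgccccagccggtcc
Tgfbr2 promoter: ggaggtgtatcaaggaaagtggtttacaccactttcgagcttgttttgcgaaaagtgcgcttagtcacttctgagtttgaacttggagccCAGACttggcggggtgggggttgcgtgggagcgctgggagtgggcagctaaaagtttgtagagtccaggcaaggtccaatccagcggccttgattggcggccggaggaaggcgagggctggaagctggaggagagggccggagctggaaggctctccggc
Tgfbi promoter: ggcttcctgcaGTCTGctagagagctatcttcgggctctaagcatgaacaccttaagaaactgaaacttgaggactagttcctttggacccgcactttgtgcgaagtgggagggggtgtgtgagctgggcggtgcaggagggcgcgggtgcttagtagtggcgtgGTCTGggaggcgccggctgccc

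In the full window of 300 bases, Tgfb1 held 0 Smad boxes, Tgfbr2 held 1 at 160 bases before the start, and Tgfbi held 2 at 239 and 85 bases before it. Of the genes that stayed near sham, Tgfb2 held 2 and Smad3 0. The box is short and common, with at least 1 match in 49.6% of 32851 mouse promoters and at least 2 in 16.2%. The palindrome GTCTAGAC, which holds no CAGAC on either strand, was in none of these promoters and in 0.213% of all. Start events lay at or near the RefSeq starts, exactly there for Tgfb1, 3 bases downstream for Tgfbr2 and 17 bases downstream for Tgfbi. Matches are a description of these windows.

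The other genes of the pathway were taken as 7 lists. Of the genes that store and activate the ligand, 21 had a value. Of those compared, 3 of 14 were higher at day 1, 11 of 17 at day 3, 9 of 16 at day 7, 6 of 16 at day 14 and 2 of 12 at day 28, beside 5.11%, 8.54%, 8.53%, 8.97% and 3.68% of all genes, and none was lower at any day. The median log2 ratio of this list was 0.35, 1.18, 1.22, 0.88 and 0.04 on days 1, 3, 7, 14 and 28. Nrros, which holds latent Tgfb1 on microglia, was at 0.727 FPKM in sham and between 2.86 and 3.32 at every post-stroke day. It was called higher at day 28 too (log2 ratio 2.05), when Tgfb1 was near sham level. The post-stroke values of Nrros hardly differed, so each of its ratios rests on the single sham value, which was below 1 FPKM. A lasting rise and a low sham value cannot be told apart. Thbs1, thrombospondin 1, which can release active ligand, was at 0.656 FPKM in sham and 2.35, 4.62, 3.95, 2.10 and 0.602 on days 1, 3, 7, 14 and 28. The protease gene Plau went from 0.783 FPKM in sham to 7.78 at day 7, and the gelatinase gene Mmp2, not listed in sham, was at 2.77 at day 7.

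Among the 7 lists, the matrix and cytoskeletal targets had the largest share of higher genes at day 1, 3, 7 and 14, but not at day 28. Of 22 genes with a value, 7 of 20 compared were higher at day 1, 17 of 22 at day 3, 15 of 22 at day 7, 11 of 20 at day 14 and none of 17 at day 28, beside the same shares of all genes, and 1 was lower at day 14. Their median log2 ratio was 0.39, 1.60, 1.58, 1.21 and -0.21 on days 1, 3, 7, 14 and 28. Timp1, a metalloproteinase inhibitor, was at 0.278 FPKM in sham and 16.2, 16.5, 5.33 and 6.86 on days 1, 3, 7 and 14, and was not listed at day 28. Lox, which cross-links collagen, was not listed in sham and was at 1.97, 4.55 and 2.99 FPKM at day 1, 3 and 7. Sparc, a matrix glycoprotein that is also in the list of microglial genes, was at 75.9 FPKM in sham and 256 at day 7. The collagens Col1a1 and Col1a2, counted among the fibroblast markers as well, were at 2.46 and 6.90 FPKM in sham and at 21.2 and 31.8 at day 7.

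The list of negative feedback and immediate targets had 11 genes compared at day 1, 3, 7 and 14. Of these, 3 were higher at day 1, beside 5.11% of all genes, and 2 at each of day 3, 7 and 14, beside 8.54%, 8.53% and 8.97%. At day 28 it was 1 of 10, beside 3.68%, and none was lower at any day. The higher ones were Cdkn1a, Tgif1 and Id1. Cdkn1a, a cell cycle inhibitor that p53 also induces, was at 3.85 FPKM in sham, 55.3 at day 1 and between 8.21 and 11.7 afterwards, and Tgif1, a corepressor of Smads, was at 0.186 FPKM in sham and 2.65 at day 3. Among intracellular mediators and inhibitors, 15 were compared at each day, of which 2 were higher at day 1, 1 at each of day 3, 7 and 14 and none at day 28, and 1 was lower at day 3 and 2 at day 14. These counts are near the shares of all genes, between 3.68% and 8.97% higher and between 2.12% and 6.92% lower. Zfyve9, which presents Smads to the receptor, was at 9.47 FPKM in sham and 3.18 at day 14, Smad5 of the BMP branch at 4.27 and 0.438, and Tab1 at 6.51 in sham and 2.93 at day 3.

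Among the co-receptors and related receptors, 1 gene was higher at each of day 1, 3, 7 and 14 and none at day 28, of 11 compared at day 3 and 12 at the other days, a share near that of all genes. Lower were 3 of 12 at day 1, beside 4.48% of all genes, 1 of 11 at day 3, beside 2.53%, and 3 of 12 at day 14, beside 6.92%. Acvr1c, a type I receptor of the activin branch, was at 2.27 FPKM in sham and 2.48 at day 28 and was not listed at day 1 or 14. Acvr2b, a type II activin receptor, was at 0.480 FPKM in sham and 1.61 at day 7. Tgfbr3, the co-receptor betaglycan, was at 1.55 FPKM in sham and not listed at day 14, and Acvrl1, the type I receptor of endothelium, was at 2.16 in sham and not listed at day 1. Of the activin and BMP branch, 14 or 15 genes were compared, with none higher at day 1, 3, 7 or 28 and at most 1 lower at any day, counts near the shares of all genes. Gdf11 was at 4.09 FPKM in sham and not listed at day 14, Fst, the activin-binding follistatin, at 1.59 in sham and not listed at day 7, and Fstl3 at 0.290 in sham and 1.52 at day 14, while Bmp2 was at 1.03 in sham and 0.369 at day 1.

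Of the microglial genes that are known to depend on TGF-beta, 10 were compared at day 1, with 1 higher and 2 lower, beside 5.11% and 4.48% of all genes. Higher were 4 of 11 at day 3, 4 of 11 at day 7 and 5 of 12 at day 14, beside 8.54%, 8.53% and 8.97% of all genes, with none lower. At day 28 none of 10 was higher and 1 was lower, beside 2.79% of all genes. Olfml3 was at 3.61 FPKM in sham and 12.6 at day 7, and Fcrls at 15.2 and 78.5, but Fcrls was at 3.63 at day 28. The purinergic receptor gene P2ry12, a marker of resting microglia, was at 7.01 FPKM at day 1, with a log2 ratio of -1.35, and between 13.3 and 21.7 FPKM in the other 5 libraries, and so did not follow the summed microglia and macrophage markers.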

How the data were processed

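RNA was measured in 6 libraries, 1 each for sham and day 1, 3, 7, 14 and 28, and samples were grouped by their treatment labels. The authors deposited FPKM per transcript start, end or splicing event. An event that is not listed need not be at 0, since Tgfb1 had start events but no end event in any library. The submitters' processing notes name Trimmomatic 0.30, HISAT2 2.0.1, HTSeq 0.6.1 and mm10; the program that made the event tables is not given in the sources used here. Reads were strand-specific, poly(A)-selected and 150 bases long. The depth per library is unknown, so no interval or floor is given.

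Genes were taken by the deposited Ensembl identifier, of which 15411 of 15441 matched GENCODE M21 (GRCm38); 879 loci without an identifier were left out. A gene value can only understate the FPKM of its locus. Genes with at least 1 FPKM in the sham or the post-stroke library were compared, with a pseudocount of 0.1 and a log2 threshold of 1. A gene not listed in a library counts as 0, and no ratio is printed against such a library. This is a choice, since an unlisted gene may still be expressed. Some calls rest on it, among them Acvr1c and Acvrl1 as lower at day 1 and Acvr1c and Tgfbr3 at day 14. With 1 library per group no test was run. The members, lists and alternatives were chosen with earlier results of these data known. All 9 members are named, with the 5 genes most alike in pattern for members whose log2 range was at least 1, and up to 4 genes per list, those past the threshold at the most days, ties by the largest ratio. Marker genes are named freely, and P2ry12, Smad2, Smad4, Bmpr2, Fn1 and Vcan were named outside this rule. Protein sequences were not used here, and promoters of Tgfb3 and Smad7 were not used. The scripts were tested on simulated data, with Python 3.11.15, numpy 2.4.6, pandas 2.3.3 and matplotlib 3.10.9.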

Additional observations from a re-analysis of the deposited data

How the results depend on the processing

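In all, 13 alternatives were run: other gene values, pseudocounts, filters, thresholds and scalings. The day 3 and day 7 counts of higher genes (3 each) were 5 and 4 with a 1.5-fold threshold, 1 each with a 4-fold one, and 2 each with end events alone, where Tgfb1 has no value. The 1.5-fold threshold gave 2 higher genes at day 1 (Tgfb1 and Tgfbi) in place of 0. At day 14, higher genes were 0 with the 4-fold threshold, and 1 with end events alone, which 5 of the 9 genes have. Genes lower at day 14 (2 as reported) were 1 with a pseudocount of 1, 1 with the 4-fold threshold, 0 where both libraries had to reach 1 FPKM and 0 with end events. The 1 gene lower at day 28, Ltbp1, was lost (0) with a pseudocount of 1, the 4-fold threshold, both libraries at 1 FPKM or end events. Centring, quantile normalisation and length correction moved none of these counts past 1.5 times. Of 559 log2 ratios of single genes, 555 moved by less than 1.5-fold, and no called ratio changed sign. This figure overstates how firm the ratios are. Alternatives that change only the filter or the threshold leave a ratio as it is. Other gene values often repeat the same sum. Without the day 14 library, chosen after seeing the data, Tgfb1 and Tgfbi kept 2 days past the threshold, Tgfbr2 2, Ltbp1 1 and Tgfbr1 0. Both day 14 calls of lower genes rest on values under 1 FPKM, where an unlisted event weighs most. No paired analysis was possible because each group has 1 library.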

Other observations

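Other long genes of the pathway had their lowest value at day 14 as well. Bmpr1a, with a longest transcript of 5956 nt, was at 4.85 FPKM in sham and 1.20 at day 14, Smad5 (6584 nt) at 4.27 and 0.438, Zfyve9 (6459 nt) at 9.47 and 3.18, and Vcan (12427 nt), the proteoglycan versican, at 1.77 and 0.0424. Not all did: Bmpr2 (12899 nt), the type II BMP receptor, was at 11.2 FPKM in sham and had a day 14 log2 ratio of -0.15, and Fn1 (8315 nt), fibronectin, was at 9.76 FPKM in sham and 10.9 at day 14. The cause was not tested.

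Smaller events of the ligand, latency and receptor genes were listed in some libraries. Tgfb2 had a shorter form of exon 5 of transcript Tgfb2-201, without its first 115 bases, at 0.0682, 0.414, 0.722 and 0.794 FPKM on days 1, 3, 14 and 28, and not in sham or at day 7. In Ltbp1 the form of exon 12 without its first 159 bases was at 0.362 FPKM in sham, 0.646, 0.781 and 0.396 on days 3, 7 and 28, and the form with them at 0.569 in sham and 0.639 at day 1. A second start of Tgfbr1 was listed at 0.530 FPKM at day 3 alone. A second start of Smad3 was at 0.0538 FPKM at day 1 and 0.223 at day 3. With 1 library per group, none of these has a replicate check.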
